A study of Arabidopsis thaliana with 12 samples.

Results

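In leaves of the variegated Arabidopsis thaliana mutant melinoe, 280 genes were shifted from the wild type in 1 direction and by nearly the same amount in green, green-white and white leaves. They were chosen on these data. Counts were scaled to CPM, a count relative to the library total, with TMM factors, which correct for differences in library composition, and each mutant group mean plus 0.5 CPM was divided by the wild-type mean plus 0.5 CPM. A gene was taken where its highest group mean was at least 3 CPM, where the 3 log2 ratios had the same sign and were each at least 0.8 in size, and where the largest minus the smallest was at most 0.5. Of 25169 genes in the joined table, 16127 reached the level and 280 of these (1.74%) met the whole rule, 142 higher and 138 lower than the wild type. Without the limit on the spread the rule held for 956 genes, so 29.3% of the genes shifted in every leaf class were shifted by nearly equal amounts. Because the ratios and their spread made the choice, they are given below as descriptions with no test.

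The series holds 12 poly(A) RNA libraries, 3 for each of 4 groups. The wild type is Col-0, sampled as rosette leaves. The mutant, melinoe, was made with EMS, a chemical that causes point mutations, and is described as a mutant of FMN/FHY (At4g21470), and its rosette leaves were taken as green, green-white and white leaves from that 1 genotype. Seedlings grew on 0.5x Murashige and Skoog medium with 1% sucrose and went to soil after 2 weeks, at 22 °C with 16 h of light a day at an intensity of 75 µmol. The leaf groups of the mutant share all other mutations that the chemical may have left in the line. The sources do not say how many plants make up a library or how old they were at harvest, so the spread between libraries is the only error available. That spread was small: edgeR put the common coefficient of variation beyond counting noise at 0.027. Whether it includes differences between separately grown plants is not known, and the calls below rest on it.

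FMN/FHY is a bifunctional enzyme: 1 domain phosphorylates riboflavin to flavin mononucleotide and the other hydrolyses the product back to riboflavin. Flavin nucleotides are cofactors of many redox enzymes in plastids, mitochondria and peroxisomes. In a variegated plant the cells of white sectors lack functional chloroplasts, and photosynthesis genes commonly follow leaf colour. The gene lists used below also cover stress hormones such as jasmonate and abscisic acid, cell wall loosening and water channels.

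Library totals ran from 25795702 to 26760055 estimated counts, and no pair of libraries of a group agreed within sampling noise, with a chi-square per gene of 1.57 to 3.86 over the 12 pairs. TMM factors lay between 0.904 and 0.928 in wild-type and green libraries and between 1.07 and 1.12 in green-white and white ones. Scaling by library size alone moved the median log2 ratio of all eligible genes by 0.01 (green), 0.24 (green-white) and 0.29 (white), and kept 136 of the 280 genes in the set, with none changing direction. Of the members given below by library, AGC2-1, AT3G05910, BOR1, IAA6, KCS1, LOX4, NIT4, PIP1C, TH8 and WRKY18 left the set under that scaling. FMN/FHY itself lay between 21.4 and 25.1 CPM in all 12 libraries, with log2 ratios to the wild type of −0.07 (green), 0.03 (green-white) and 0.07 (white). A list of 4 mesophyll markers summed to between 48471 and 49461 CPM in the wild type, 52298 to 55466 in green, 25996 to 26613 in green-white and 17988 to 18476 in white leaves. In bulk leaves, fewer cells of a type and less RNA per cell cannot be told apart.

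Members stood clear of the wild type in every library. The lowest mutant library of each of the 142 higher genes lay above the highest wild-type library, and the highest mutant library of each of the 138 lower genes lay below the lowest wild-type library. All 9 mutant libraries stood on 1 side of the wild type in 41.2% of all eligible genes and in 674 of the 676 genes that met sign and size with a wider spread, and the size limit used these libraries, so nothing is read from the members' count. The median log2 ratios of the higher genes were 1.16 for green, 1.40 for green-white and 1.33 for white leaves, and those of the lower genes were −1.12, −1.11 and −1.27, beside 0.01, −0.02 and 0.01 over all eligible genes. Of the higher genes, 89 were at least 2-fold above the wild type in all 3 leaf classes and 12 at least 4-fold. Of the lower genes, 66 were at least 2-fold below it and 3 at least 4-fold. All 280 were called at an adjusted p under 0.05 by edgeR's quasi-likelihood test in each comparison with the wild type, where the rule used the same contrasts and where 58.3% of all tested genes were called for green, 72.9% for green-white and 79.9% for white leaves. The 3 comparisons share the wild-type libraries.

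**Figure D1:**
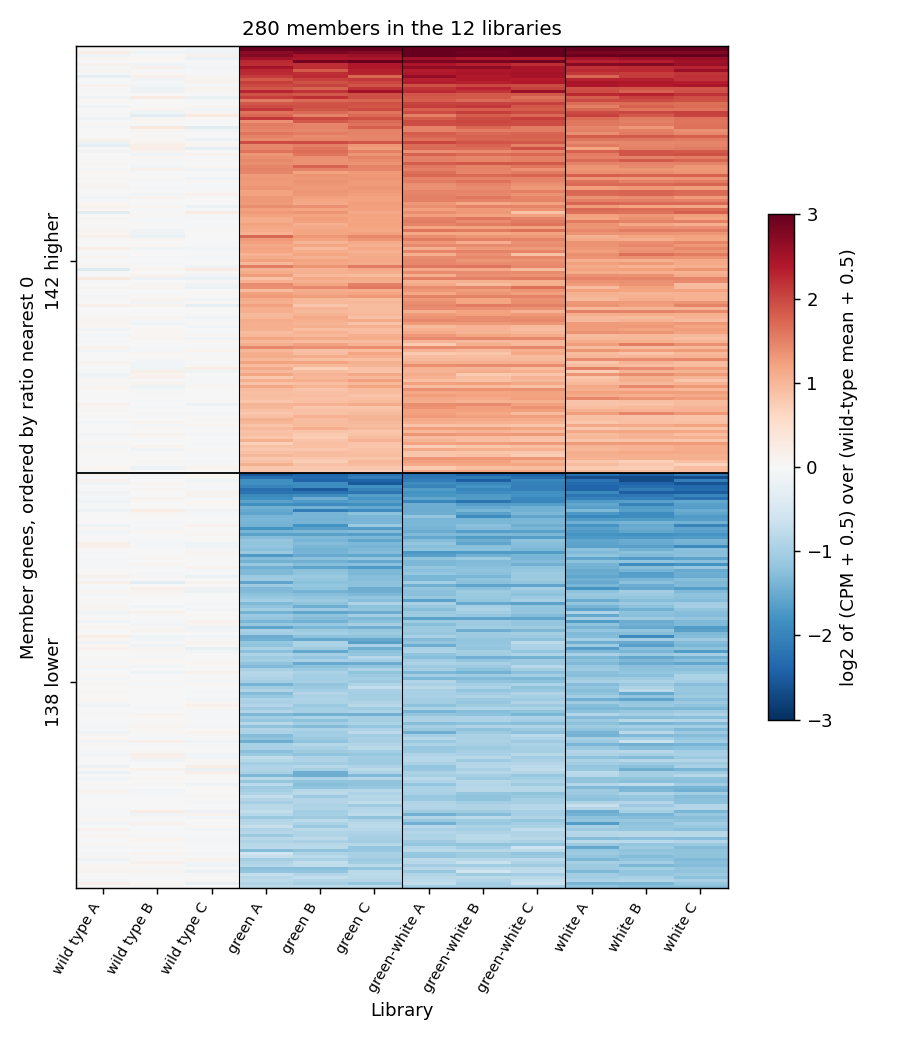
Heat map of the 280 genes (down) in the 12 libraries (across), coloured by log2 of CPM plus 0.5 over the wild-type mean plus 0.5; red is above and blue below the wild type, and colours are capped at 3 in either direction. The 142 higher and 138 lower genes keep 1 colour across the 9 mutant libraries, with small steps between leaf classes.

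Nearly equal did not mean identical. Between green-white and green leaves 132 members (47.1%) were called, beside 59.5% of all tested genes. Between white and green leaves 178 were called (63.6%, beside 72.6%), and between white and green-white leaves 170 (60.7%, beside 64.3%). These shares follow from a rule that caps the spread, and nothing is read from them. Among the higher genes the green-white class was the highest for 74, the white class for 54 and the green class for 14. Among the lower genes the white class was the lowest for 92, the green class for 29 and the green-white class for 17. Libraries of the 3 leaf classes overlapped in every pairing for 8 higher and 26 lower genes, and in no pairing for 46 higher and 17 lower genes. These are 12.1% and 22.5% of members, beside 8.76% and 42.2% of all eligible genes, and the cap on the spread favours overlap.

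**Figure D2:**
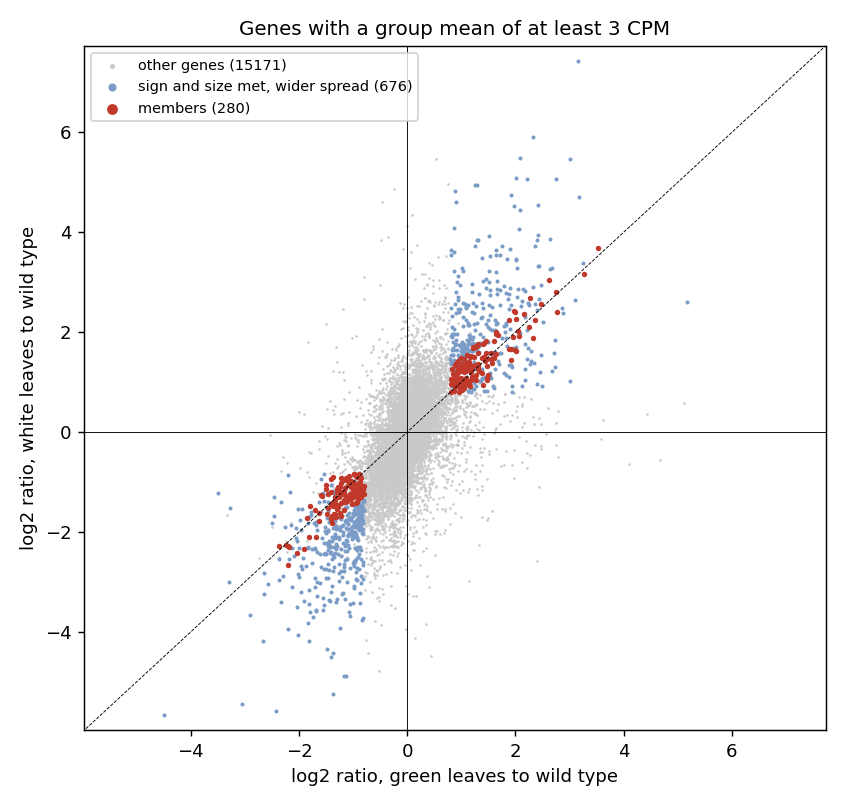
Log2 ratios to the wild type in green leaves (horizontal) and white leaves (vertical) for the 16127 genes that reached 3 CPM. The 280 members lie along the dashed line of equal ratios, and the 676 genes that met sign and size but had a wider spread lie mostly off it.

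Among the higher genes, the largest shift, by the ratio nearest 0 and among members with counts in every library, belonged to OSM34, which encodes an osmotin, a thaumatin-like protein induced by salt and pathogens. The added 0.5 CPM pulls ratios of low genes towards 0, and without it TH8, given below, rose further than OSM34. The level of OSM34 was 1.56, 1.57 and 1.4 CPM in the 3 wild-type libraries, 18.2, 19.4 and 19.0 in green leaves, 21.2, 21.9 and 20.8 in green-white leaves and 16.8, 18.4 and 17.3 in white leaves. All 9 mutant libraries lay far above the wild type; green-white leaves were the highest, green and white leaves overlapped, with log2 ratios of 3.27, 3.44 and 3.16 in green, green-white and white leaves. BPS3, a relative of the root-to-shoot signalling gene BYPASS1, was at 8.42, 8.3 and 6.93 CPM in the 3 wild-type libraries, 47.7, 44.6 and 45.2 in green leaves, 48.5, 44.1 and 43.0 in green-white leaves and 47.2, 48.8 and 50.8 in white leaves. The mutant classes overlapped in every pairing, and the ratios were 2.47, 2.45 and 2.56. NIT4, a nitrilase that degrades the cyanide product cyanoalanine, was at 17.3, 15.2 and 15.6 CPM in the 3 wild-type libraries, 64.4, 66.8 and 61.0 in green leaves, 61.8, 65.3 and 63.7 in green-white leaves and 88.4, 85.5 and 89.8 in white leaves. White leaves stood above the other classes, which overlapped, and the ratios were 1.97, 1.96 and 2.42.

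OSM34, BPS3 and NIT4 share a GCC-box in the 250 bases before the annotated gene start. The GCC-box (AGCCGCC) is the element bound by ethylene response factors, the G-box (CACGTG) by bHLH and bZIP factors and the W-box (TTGACC) by WRKY factors. Both strands were searched; the G-box and the ABRE (ACGTGNC) can overlap. The GCC-box was found upstream of 8 of the 142 higher genes (5.63%) and of 0 of the 138 lower genes, beside 104 of all 16127 eligible genes (0.645%) and 0 of the 324 higher genes with a wider spread. The other 5 higher genes with it were AT4G38540, WRKY26, Mik, AT1G56140 and AT1G78280, whose windows overlap a neighbouring gene. G-boxes stood before 13.4% of higher and 2.90% of lower genes, beside 7.66% of eligible genes and 13.3% of the higher genes with a wider spread. W-boxes stood before 14.1% of higher and 10.1% of lower genes, beside 12.3% of eligible genes and 22.5% of the higher genes with a wider spread. The site II element (TGGGCC), common before genes of growing cells, stood before 8.45% of higher and 7.97% of lower genes, beside 17.5% of eligible genes and 6.79% and 5.68% of the higher and lower genes with a wider spread. The telo-box (AAACCCTA) stood before 0.704% of higher and 2.17% of lower genes, beside 3.53% of eligible genes and 1.23% and 1.70% of those with a wider spread. No binding was measured, and a match is a description of the letters only.

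The windows of 6 members are shown 5′ to 3′ on the strand of the gene, ending at the base before the annotated start, from the TAIR10.1 assembly of RefSeq. They are the 3 GCC-box genes whose window holds no other gene, 2 higher genes with both a G-box and a W-box (AGC2-1 and JAZ8, described further on) and NAI2, the lower gene with the largest shift by the ratios of the rule. Capitals mark the GCC-box, the G-box and the W-box on either strand.
OSM34, chr4:7026225-7026474, minus strand: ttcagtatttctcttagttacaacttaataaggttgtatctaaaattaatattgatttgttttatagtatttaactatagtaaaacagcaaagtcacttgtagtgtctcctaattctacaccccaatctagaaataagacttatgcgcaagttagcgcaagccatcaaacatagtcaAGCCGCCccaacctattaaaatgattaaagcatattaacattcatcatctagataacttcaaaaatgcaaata
BPS3, chr4:564510-564759, plus strand: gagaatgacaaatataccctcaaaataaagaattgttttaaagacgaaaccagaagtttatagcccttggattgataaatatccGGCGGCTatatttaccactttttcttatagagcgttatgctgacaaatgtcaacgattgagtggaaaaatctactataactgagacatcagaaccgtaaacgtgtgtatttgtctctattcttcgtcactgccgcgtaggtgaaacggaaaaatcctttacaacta
NIT4, chr5:7378937-7379186, plus strand: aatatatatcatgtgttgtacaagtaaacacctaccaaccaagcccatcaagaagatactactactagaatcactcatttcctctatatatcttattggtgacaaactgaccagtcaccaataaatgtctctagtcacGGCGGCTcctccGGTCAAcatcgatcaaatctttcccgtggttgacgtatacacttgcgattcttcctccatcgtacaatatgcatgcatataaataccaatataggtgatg
AGC2-1, chr3:9195084-9195333, plus strand: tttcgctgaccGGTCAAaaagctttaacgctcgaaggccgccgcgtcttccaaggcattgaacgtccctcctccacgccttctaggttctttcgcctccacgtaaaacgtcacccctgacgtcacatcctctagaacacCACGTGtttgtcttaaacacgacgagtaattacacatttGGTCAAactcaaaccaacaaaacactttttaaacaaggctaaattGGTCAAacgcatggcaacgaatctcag
JAZ8, chr1:10596102-10596351, plus strand: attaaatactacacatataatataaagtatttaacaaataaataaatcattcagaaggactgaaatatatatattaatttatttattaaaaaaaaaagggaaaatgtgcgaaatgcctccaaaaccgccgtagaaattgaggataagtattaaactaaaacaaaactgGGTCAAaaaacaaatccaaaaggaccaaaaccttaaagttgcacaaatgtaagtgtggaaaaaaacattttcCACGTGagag
NAI2, chr3:5402654-5402903, minus strand: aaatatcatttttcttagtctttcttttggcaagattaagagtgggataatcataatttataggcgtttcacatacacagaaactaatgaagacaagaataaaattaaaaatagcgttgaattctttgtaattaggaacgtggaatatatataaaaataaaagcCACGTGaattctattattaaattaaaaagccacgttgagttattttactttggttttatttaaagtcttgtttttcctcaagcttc

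Jasmonate genes gave 5 members, all higher, out of 27 genes of a jasmonate list that all reached 3 CPM (18.5%, beside 1.74% of all eligible genes). Jasmonates are lipid-derived wound and defence hormones whose receptor triggers the destruction of JAZ repressors. On the synthesis side, LOX4, a lipoxygenase that starts the pathway, was at 201, 199 and 208 CPM in the 3 wild-type libraries, 467, 508 and 488 in green leaves, 562, 559 and 579 in green-white leaves and 666, 677 and 658 in white leaves. The order was the same in all libraries, with white leaves highest and green leaves lowest of the mutant classes, and the ratios were 1.27, 1.48 and 1.72. Among the repressors, JAZ1 was at 239, 242 and 231 CPM in the 3 wild-type libraries, 545, 541 and 544 in green leaves, 558, 552 and 558 in green-white leaves and 558, 583 and 570.1 in white leaves. The leaf classes lay within a narrow band and the ratios were 1.19, 1.23 and 1.26. The repressors JAZ5 and JAZ8 had ratios of 1.28, 1.49 and 1.04 and of 1.02, 1.33 and 1.31.

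On the turnover side, CYP94B3, the cytochrome P450 that hydroxylates the active hormone jasmonoyl-isoleucine, was at 18.0, 19.5 and 19.2 CPM in the 3 wild-type libraries, 91.3, 89.5 and 96.4 in green leaves, 102, 106 and 109 in green-white leaves and 83.3, 81.0 and 85.3 in white leaves. Each leaf class stood apart from the others, green-white leaves being highest and white leaves lowest, with ratios of 2.26, 2.45 and 2.11. The rest of the list did not hold 1 direction. Over the 27 genes, 21 were called higher and 5 lower in green leaves, 19 and 7 in green-white leaves, and 14 and 12 in white leaves. Of all tested genes, 58.3%, 72.9% and 79.9% were called in either direction in these classes. OPR3, a synthesis enzyme that is no member, had ratios of 1.24, 1.42 and 0.39, and the storage proteins VSP1 and VSP2 had −3.33, −0.44 and −1.65, and −2.49, −0.67 and −1.89. MYC2, the leading transcription factor of the response, had 0.18, 0.16 and 0.22.

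**Figure D3:**
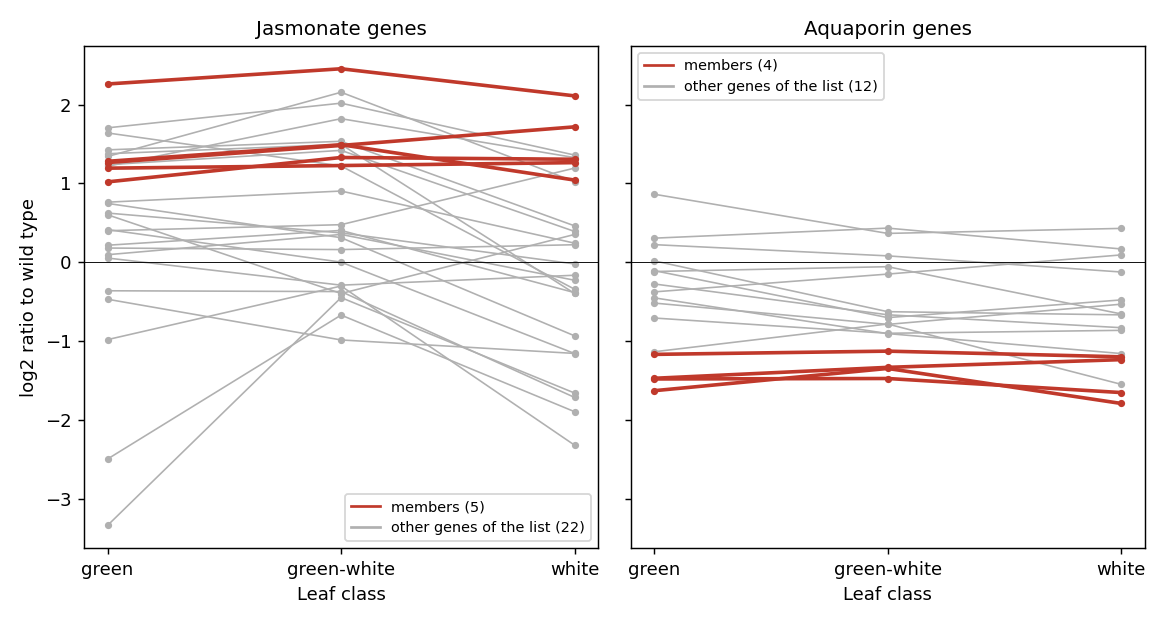
Log2 ratios to the wild type in green, green-white and white leaves for the jasmonate list (left, 27 genes) and the aquaporin list (right, 16 genes that reached 3 CPM); each line is a gene and members are red. The 5 jasmonate members run level above 1 and the 4 aquaporin members level below −1, while many other jasmonate genes drop towards white leaves.

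Genes of water deficit and abscisic acid formed another set, of 11 higher members, grouped like the role sets below after their values were seen, so that counts and directions of these sets carry no test. MAPKKK18, a kinase of the abscisic acid signalling cascade, was at 1.36, 0.950 and 0.989 CPM in the 3 wild-type libraries, 9.79, 10.8 and 10.2 in green leaves, 12.2, 11.5 and 12.2 in green-white leaves and 10.8, 10.7 and 10.4 in white leaves. The wild type was near 1 CPM and the mutant classes within a few CPM of each other, with ratios of 2.75, 2.97 and 2.80. RD20, a caleosin of oil bodies induced by drought, went from 50.6 ± 0.882 CPM in the wild type to 140.4 ± 3.6, 173 ± 0.717 and 179.9 ± 1.99 (SD, n = 3) in green, green-white and white leaves. The NAC factors RD26 and ATAF1, both induced by dehydration, had ratios of 1.14, 1.44 and 0.96 and of 1.12, 1.48 and 1.32. UGT71B6, which attaches glucose to abscisic acid, had ratios of 1.29, 1.41 and 1.72. ERD7, an early dehydration gene, was at 294, 267 and 263 CPM in the 3 wild-type libraries, 743, 717 and 727 in green leaves, 739, 724 and 749 in green-white leaves and 529, 521 and 538 in white leaves. Green and green-white leaves overlapped above white leaves, and its ratios were 1.40, 1.42 and 0.94. Only RD20 and RD26 of the 22-gene list for abscisic acid, cold and drought were members (9.52% of its eligible genes, beside 1.74% of all). In that list 19 genes were called higher and 2 lower in green leaves, 15 and 6 in green-white, and 8 and 12 in white leaves. Calls in either direction covered 58.3%, 72.9% and 79.9% of all tested genes.

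Of the members, 8 higher genes were calcium sensors or kinases of calcium signalling, a group picked in the same way and with no list total. CBL1, a calcineurin B-like calcium sensor at membranes, was at 18.9, 19.8 and 18.5 CPM in the 3 wild-type libraries, 51.3, 49.8 and 54.3 in green leaves, 55.0, 52.8 and 55.1 in green-white leaves and 55.2, 54.5 and 55.9 in white leaves. The mutant libraries lay close together and well above the wild type, with ratios of 1.42, 1.48 and 1.51. SIP4, a protein kinase of the family that such sensors bind, had ratios of 1.54, 1.95 and 1.59, and the calcium-dependent kinase CPK9 had 0.82, 1.32 and 1.07. CPK9 was the 1 member that left the set under each of the other 3 scalings. The calmodulin-like proteins CML37 and CML38 had 1.01, 1.20 and 0.97 and 0.97, 1.01 and 1.23. A match of annotated product names to annexin and calcium terms gave 4 members of 51 eligible genes (7.84%), all higher, beside 1.74% of all eligible genes. The match includes EDA39, annotated as calmodulin-binding, and leaves out CBL1, so it is no complete family. Of the 62 tested genes of this match, 28 were called higher and 9 lower for green leaves. For green-white leaves these were 26 and 18, and for white leaves 26 and 25. The shares of all tested genes called in either direction were 58.3%, 72.9% and 79.9% for the 3 classes.

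Redox and detoxification genes, picked from the members after their values were seen, gave 8 higher and 2 lower members. The antioxidant enzyme list gave 0 of 17 eligible genes and the list for oxidative stress and mitochondrial dysfunction 2 of 24. By annotation, glutathione transferases gave 2 of 34 and UDP-glycosyltransferases 3 of 109, beside 1.74% of all eligible genes. Of these 3, AT2G18570 was lower, with ratios of −1.15, −1.33 and −1.11. AGC2-1, known as OXI1, a kinase switched on by hydrogen peroxide, was at 3.61, 3.64 and 4.12 CPM in the 3 wild-type libraries, 17.6, 15.6 and 16.6 in green leaves, 21.4, 21.2 and 22.0 in green-white leaves and 23.0, 22.1 and 21.4 in white leaves. Green leaves were the lowest mutant class, green-white and white leaves overlapped, and the ratios were 1.99, 2.36 and 2.40. The thioredoxin TH8 had ratios of 2.27, 2.33 and 2.69 on a low level of 0.246, 0.124 and 0.165 CPM in the 3 wild-type libraries, 2.67, 2.58 and 3.08 in green leaves, 3.15, 2.9 and 2.66 in green-white leaves and 3.99, 4.04 and 3.56 in white leaves. The wild type was close to 0. The glutathione transferases GSTU10 and GSTL1 had ratios of 1.54, 1.75 and 1.46 and 1.61, 1.60 and 1.48, and the glucosyltransferase UGT73B5 had 1.64, 2.0 and 2.0, although UGT73B5 shares reads with a copy and overlaps a neighbouring gene on the same strand. NADK1, a kinase that makes NADP from NAD, had 1.01, 1.23 and 0.85. The lower members were the ascorbate oxidase gene AT5G21100, at −1.05, −0.94 and −1.35, and the peroxidase gene AT1G71695, at −0.88, −1.12 and −1.22. SAG21, a late-embryogenesis-abundant-like protein of oxidative stress, had the highest level per transcript length of the higher members, averaged over the 4 groups: 168 CPM per kilobase in the wild type and 397, 475 and 480.4 in green, green-white and white leaves, from CPM divided by the RefSeq transcript length.

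Immune genes, picked from the members after their values were seen, gave 12 higher members and 1 lower. By annotation, disease resistance receptors gave 3 members of 110 eligible genes (2.73%) and receptor-like kinases 3 of 149 (2.01%). These lie near the 1.74% of all eligible genes. The salicylic acid list gave 1 of 22 and the list for ethylene and defensins 0 of 21. PLA2A, a patatin-like lipid acyl hydrolase of the defence against pathogens, was at 136, 137 and 137 CPM in the 3 wild-type libraries, 500.0, 509 and 516 in green leaves, 558, 557 and 571 in green-white leaves and 436, 436 and 433 in white leaves. Green-white leaves were highest and white leaves lowest of the mutant classes without overlap, and the ratios were 1.89, 2.04 and 1.67. Among receptors and their partners, PEPR1, which binds the Pep danger peptides, had ratios of 0.99, 1.41 and 0.93, and the wall-associated kinase-like WAKL10 had 1.68, 1.76 and 1.95. The helper immune receptor ADR1 had 0.92, 0.86 and 1.16 and the TIR-type receptor gene AT5G41750 had 0.84, 1.24 and 1.27, while the TIR-type gene AT4G19530 had −1.70, −1.36 and −1.56. EXO70B2, an exocyst subunit needed for defence secretion, had 1.01, 1.38 and 1.01. The trypsin inhibitor TI1 and the lipid-transfer-like protein EARLI1 had 1.91, 2.03 and 1.66 and 2.02, 1.95 and 1.62. Counts of PEPR1 and AT5G41750 were not whole, so their reads are shared with other genes.

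DNA-binding factors gave 13 higher and 9 lower members, grouped after their values were seen. WRKY factors gave 4 members of 41 eligible genes (9.76%) and NAC factors 3 of 42 (7.14%), all higher, beside 1.74% of all eligible genes. MYB factors gave 2 of 59, both higher, and bHLH factors 2 of 68, in opposite directions. Families were matched by words of the annotated product name. This match gave 0 of 29 eligible AP2/ERF genes, but it missed the member CEJ1, given below. The 0 is therefore no count for the whole AP2/ERF family. WRKY18, a regulator of basal defence, was at 97.2, 98.7 and 96.1 CPM in the 3 wild-type libraries, 184, 185 and 176 in green leaves, 233, 224 and 227 in green-white leaves and 215, 208 and 215 in white leaves. Green leaves were the lowest mutant class, and the ratios were 0.90, 1.22 and 1.13. WRKY45, WRKY26 and WRKY8 had 1.32, 1.57 and 1.37, 1.21, 1.29 and 1.69, and 1.17, 1.57 and 1.21. RHL41, the zinc finger factor also called ZAT12 that responds to light and oxidative stress, had 1.0, 1.10 and 1.48, and its relative ZAT7 had 1.08, 0.98 and 1.25. HSF4, a heat shock factor of class B, had 1.28, 1.51 and 1.14. CEJ1, an AP2-domain repressor, had 1.48, 1.46 and 1.32. The C-repeat binding factor CBF4 was at 1.6, 1.28 and 1.69 CPM in the 3 wild-type libraries, 3.04, 3.03 and 3.04 in green leaves, 2.97, 3.26 and 3.33 in green-white leaves and 2.92, 2.89 and 3.36 in white leaves. All of its leaf classes overlapped on a low level, with 0.81, 0.87 and 0.81.

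Other higher members with large shifts were spread over several roles. 5PTASE11, an inositol polyphosphate phosphatase, had ratios of 2.01, 2.36 and 2.26. AT5G51440, annotated as a small heat shock protein of the HSP20 class, had 2.62, 3.0 and 3.05, and the von Willebrand factor A domain gene AT5G50360 had 2.37, 2.60 and 2.24. BAM1 and AMY1, a beta-amylase and an alpha-amylase that break down starch, had 1.37, 1.84 and 1.49 and 1.03, 1.29 and 1.05. GRP3S, a glycine-rich protein, came next after SAG21 in level per transcript length, at 174 CPM per kilobase in the wild type and 376, 381 and 508 for the 3 leaf classes in the same order. CLH2, a chlorophyllase, had 1.38, 1.05 and 1.19, but its counts were not whole and it overlaps AT5G43870.

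A pair of pseudogenes had almost no reads in the wild type. AT4G03860 had 0 counts in the 3 wild-type libraries and 214, 265 and 184 counts in the green, green-white and white groups. Against a floor of 3 counts per library (0.124 CPM) it was at least 23.7-fold, 25.1-fold and 17.2-fold higher. AT2G07395 had 1 count in the wild type and 399, 551 and 524 counts, rounded, in the mutant groups. Its log2 ratios with 0.5 CPM added, as used for the other genes, were 3.54, 3.76 and 3.68. As plain folds with nothing added, its ratios were 398, 470 and 442, with exact 95% counting intervals of 70.9 to 15740, 84.0 to 18599 and 78.9 to 17473. These intervals cover counting error only, and the counts of AT2G07395 were not whole, so its reads are shared with other genes.

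**Figure D4:**
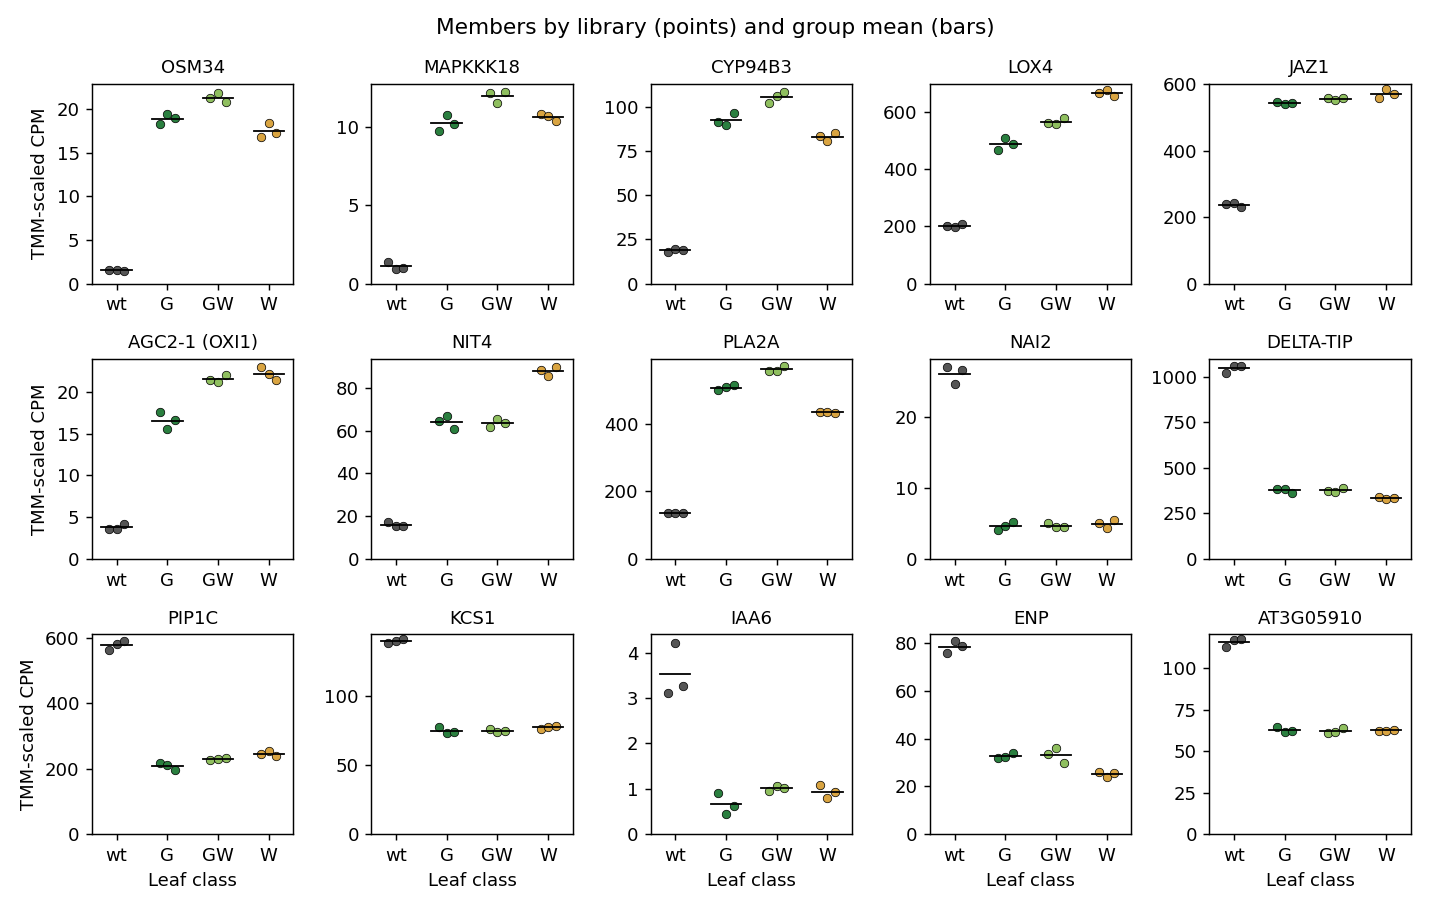
TMM-scaled CPM of 15 members in every library (points) with the group mean (bar), for the wild type (wt) and green (G), green-white (GW) and white (W) mutant leaves; each vertical axis is linear and starts at 0. In each panel the wild-type libraries lie clear of the 9 mutant libraries, while the mutant classes differ in order from gene to gene.

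Of the 138 lower genes, NAI2 had the largest shift by the log2 ratio nearest 0. The 0.5 CPM added to each mean pulls ratios of low genes towards 0, so this order holds for these ratios only. Without it AT5G51670 and ULT1, among others, fell further than NAI2. NAI2 is a component of ER bodies, the compartments that store myrosinase-type beta-glucosidases against herbivores. Its level was 26.9, 24.5 and 26.5 CPM in the 3 wild-type libraries, 3.99, 4.63 and 5.21 in green leaves, 5.07, 4.53 and 4.45 in green-white leaves and 5.04, 4.39 and 5.4 in white leaves. The leaf classes overlapped completely, and the ratios were −2.37, −2.35 and −2.28. It was the only member among 17 eligible genes of the list for ER bodies and myrosinases (5.88%, beside 1.74% of all). Among its 18 tested genes, 14 were called lower for green, 13 for green-white and 15 for white leaves, and 2, 4 and 3 higher. Over all tested genes 58.3%, 72.9% and 79.9% were called in either direction. ULT1, a SAND-domain regulator of floral meristem activity, was at 9.0, 8.92 and 9.28 CPM in the 3 wild-type libraries, 1.48, 1.43 and 1.81 in green leaves, 1.64, 1.7 and 1.51 in green-white leaves and 1.01, 1.01 and 1.0 in white leaves. The mutant libraries lay far below the wild type, and the ratios were −2.21, −2.18 and −2.67.

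Water channels gave 4 lower members of 16 eligible aquaporin genes (25.0%, beside 1.74% of all eligible genes). DELTA-TIP, also called TIP2;1, an aquaporin of the vacuole membrane, was at 1019, 1060.4 and 1057 CPM in the 3 wild-type libraries, 382, 384 and 362 in green leaves, 373, 369 and 390.4 in green-white leaves and 339, 327 and 334 in white leaves. Green and green-white leaves overlapped and white leaves were lower, with ratios of −1.47, −1.47 and −1.65. Of the plasma membrane aquaporins, PIP1C was at 563, 581 and 592 CPM in the 3 wild-type libraries, 217, 213 and 198 in green leaves, 226, 231 and 234 in green-white leaves and 245, 254 and 241 in white leaves. The order ran the other way, from green leaves as the lowest to white leaves as the highest of the mutant classes, and the ratios were −1.47, −1.33 and −1.23. PIP1;5 was at 436, 444 and 440.4 CPM in the 3 wild-type libraries, 201, 195 and 192 in green leaves, 199, 201 and 206 in green-white leaves and 194, 194 and 189 in white leaves. Green leaves overlapped both other classes, green-white leaves lay just above white ones, and the ratios were −1.16, −1.12 and −1.19, and PIP3 had −1.62, −1.34 and −1.78. Per transcript length DELTA-TIP had the highest level of all 280 members, averaged over the 4 groups, at 879 CPM per kilobase in the wild type and 316, 317 and 281 for green, green-white and white leaves. Over the 18 tested aquaporins 14 were called lower and 3 higher in green leaves, 13 and 3 in green-white leaves, and 15 and 2 in white leaves. Of all tested genes, 58.3%, 72.9% and 79.9% were called in either direction. PIP2A, which is no member because green leaves missed the size limit, had ratios of −0.70, −0.90 and −0.86.

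Cell wall genes gave 12 lower and 4 higher members. The beta-xylosidase BXL3 had ratios of −1.85, −1.59 and −1.72, and the xylan-acetylation family members TBL36 and ESK1 had −2.24, −1.88 and −2.26 and −1.46, −1.08 and −1.52. XTH16, which cuts and rejoins xyloglucan, had −1.29, −1.11 and −1.20. FUC95A, which removes fucose from xyloglucan, had −1.22, −0.82 and −1.19, and GATL6, of a glycosyltransferase family, had −1.24, −0.81 and −1.09. AT3G05910, a pectin acetylesterase, had the narrowest spread of all members and was at 113, 117 and 118 CPM in the 3 wild-type libraries, 64.4, 61.6 and 62.3 in green leaves, 61.2, 61.7 and 63.9 in green-white leaves and 62.4, 62.2 and 63.0 in white leaves. Its 9 mutant libraries overlapped fully, with ratios of −0.88, −0.89 and −0.88. The arabinogalactan proteins AGP17, AGP25 and FLA13 had −0.94, −1.29 and −1.14, −1.3, −1.05 and −1.47 and −1.22, −0.93 and −1.03. The higher members were the expansin EXPA10, at 1.01, 1.38 and 0.99, the arabinogalactan protein AGP1, at 1.17, 1.51 and 1.52, the fucosyltransferase FUT4, at 1.16, 1.20 and 1.35, and the epimerase UGE5, at 1.06, 1.35 and 0.89.

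Of the members, 9 lower genes were grouped under surface and membrane lipids after their values were seen. The group leaves out higher members with lipid roles, such as PLA2A. Genes annotated as lipid transfer proteins gave 2 higher members and 1 lower of 36 eligible genes (8.33%, beside 1.74% of all). KCS1, which elongates fatty acids for waxes, was at 138, 139 and 141 CPM in the 3 wild-type libraries, 77.4, 73.4 and 73.5 in green leaves, 75.6, 73.8 and 74.8 in green-white leaves and 76.2, 77.6 and 78.0 in white leaves. Green leaves overlapped both other classes in a narrow band well below the wild type, with ratios of −0.89, −0.90 and −0.85. BDG1, a hydrolase needed for the cuticle, had −0.92, −0.83 and −1.29. The GDSL lipases AT5G14450, AT3G53100, AT3G16370 and AT1G29670 had −1.90, −1.96 and −2.33, −1.31, −1.27 and −1.71, −0.93, −1.14 and −1.22 and −0.87, −0.85 and −1.28. A list of 6 epidermis markers, none of them a member, summed to between 1112 and 1132 CPM in the wild type, 681 to 688 in green, 808 to 818 in green-white and 836 to 851 in white leaves; none was below 0.5 CPM in every group. Its part in these values was not tested.

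Genes of growth hormones, picked from the members after their values were seen, gave 10 lower ones. On the lists, 2 of 26 eligible auxin genes, 2 of 20 cytokinin genes and 0 of 23 gibberellin and brassinosteroid genes were members. The share of all eligible genes was 1.74%. In auxin signalling, the repressors IAA6 and AXR3 had ratios of −1.80, −1.42 and −1.49 and −0.93, −1.26 and −1.3, with IAA6 at 3.12, 4.21 and 3.26 CPM in the 3 wild-type libraries, 0.905, 0.451 and 0.615 in green leaves, 0.945, 1.06 and 1.02 in green-white leaves and 1.08, 0.801 and 0.934 in white leaves. The 9 mutant libraries of IAA6 lay below the wild type, and only green and green-white leaves did not overlap. ENP, which directs auxin transport in organ formation, had −1.25, −1.23 and −1.61. CYP90D1, an enzyme of brassinosteroid synthesis, had −1.10, −1.16 and −1.35, and BRL2, a relative of the brassinosteroid receptor in vascular cells, had −1.40, −1.01 and −1.46. CKX7, a cytokinin oxidase, and HK2, the cytokinin receptor also called AHK2, had −1.12, −0.86 and −1.27 and −0.98, −0.89 and −0.85. The peptide hormone gene RALF23 had −1.04, −0.90 and −1.07. ACL5, which makes thermospermine in xylem, had −1.40, −1.26 and −0.94. In the auxin list, of 34 tested genes, 23 were called lower and 8 higher in green, 24 and 7 in green-white, and 25 and 6 in white leaves. Calls in either direction covered 58.3%, 72.9% and 79.9% of all tested genes. The 8 genes of the xylem and vascular marker list summed to between 576 and 582 CPM in the wild type, 514 to 524 in green, 410 to 413 in green-white and 252 to 260 in white leaves. The part of vascular cells in these values was not tested.

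Of the members, 5 lower genes were of cell division and the cytoskeleton, while 0 of 12 eligible genes of the cell cycle list were members. The 5 were CYCD1;1, a cyclin of entry into the cycle, at −1.06, −0.97 and −1.29; the replication clamp PCNA2 at −1.04, −0.82 and −1.3; EMB2813, the large subunit of DNA primase, at −1.0, −0.80 and −1.29; the tubulin TUB7 at −1.13, −0.88 and −1.37; and the formin AFH1, which nucleates actin, at −1.12, −0.92 and −1.34. All 5 left the set when scaled by library size alone, and EMB2813 stayed in it in 3 and PCNA2 in 6 of the 12 fits that left out 1 library. Counts of PCNA2, TUB7 and AFH1 were not whole. Lower members also included DNA-binding factors. TCP15 and AT5G23280, of the TCP growth regulators, had −1.09, −0.92 and −1.06 and −1.0, −1.09 and −1.19. FLP, which ends divisions in the stomatal lineage, had −0.97, −1.09 and −1.05, and TRY, a repressor of trichome fate, had −1.14, −1.04 and −1.36. SHR, a GRAS factor of root and bundle sheath patterning, had −0.82, −1.13 and −1.14, and the homeodomain factors ATHB13 and HAT1 had −1.09, −1.17 and −1.33 and −1.28, −1.58 and −1.10. Root markers summed to between 61.3 and 65.8 CPM in the wild type and to at most 6.21 CPM in any mutant library, with PLT1, RHD6 and COBL9 (annotated SHV2) below 0.5 CPM in every group. In the wild type most of the sum was PYK10, an ER-body beta-glucosidase, at 57.8 ± 2.39 CPM, and the rest was SHR, at 6.40 ± 0.435 (SD, n = 3). In green, green-white and white leaves PYK10 was at 2.09 ± 0.378, 2.16 ± 0.223 and 0.648 ± 0.139 CPM. SHR was the larger part there, at 3.41 ± 0.544, 2.66 ± 0.124 and 2.63 ± 0.167 CPM.

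Ion and nutrient transport gave 5 lower members. BOR1, which exports boron into xylem, was at 24.2, 22.9 and 24.2 CPM in the 3 wild-type libraries, 8.68, 10.1 and 12.3 in green leaves, 11.8, 11.5 and 12.2 in green-white leaves and 9.41, 10.9 and 9.45 in white leaves. Mutant libraries lay in a narrow range, with ratios of −1.16, −0.97 and −1.22. NRT1.9, a phloem nitrate transporter, had −1.04, −1.09 and −0.98, the potassium channel KT2/3 of the phloem had −0.91, −1.06 and −1.21 and the zinc transporter ZIP4 had −1.07, −1.03 and −0.89. Next to each other on chromosome 2 were AT2G07777 and AT2G07671, both annotated as subunits of the mitochondrial ATP synthase. All genes in the joined table lie on nuclear chromosomes, so genes of the mitochondrial genome could not be compared. Whether reads from that genome were counted at these loci was not tested. AT2G07671 was at 18.0, 18.3 and 20.4 CPM in the 3 wild-type libraries, 4.57, 4.84 and 5.7 in green leaves, 5.32, 5.52 and 5.05 in green-white leaves and 3.75, 3.9 and 4.5 in white leaves. The mutant libraries were all lower, and the ratios were −1.81, −1.75 and −2.10 for AT2G07671 and −1.37, −1.32 and −1.48 for AT2G07777.

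The 5 members with the narrowest spread were all lower genes. Over the whole set the median spread was alike, at 0.34 for higher and 0.32 for lower members. After AT3G05910, the narrowest spreads belonged to AACT1, a thiolase of the mevalonate pathway, with ratios of −1.02, −1.06 and −1.03, to KCS1, to AT3G05900, annotated as neurofilament-like, with −1.38, −1.36 and −1.42, and to AT3G26490, of the NPH3 family of phototropic signalling, with −0.93, −0.96 and −0.90. Counts of AACT1 were not whole, so its reads are shared with other genes. AT3G05900 and AT3G05910 are neighbours on chromosome 3. No difference between leaf classes was called by edgeR for 46 members, 9 higher and 37 lower, among them NAI2, PIP1;5, KCS1, XTH16, TCP15 and GSTL1. A missed call does not show that the classes are alike, and many of these genes had low counts. In 41 members 1 pairing of classes was called, in 140 members 2 and in 53 members all 3. The shares with 0, 1, 2 and 3 pairings called were 16.4%, 14.6%, 50.0% and 18.9% of members, beside 13.8%, 9.57%, 43.1% and 33.5% of the 19424 tested genes, and nothing is read from them, since the rule capped the spread.

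At the limits of the rule the values pass smoothly from inside to outside. For size, the nearest inside were GGH2, with −0.80, −1.02 and −1.25, EMB2813 and AT2G37110, with 0.80, 1.18 and 0.95, and the nearest outside were AT4G02420, with −0.80, −0.97 and −1.06, AT3G59110, with −0.91, −0.89 and −0.80, and AT1G57770, with 0.95, 0.80 and 1.17. For the spread, CPK9, the CRINKLY4-related AT2G39180, with −1.34, −1.15 and −1.65, and SRO2, with 1.01, 1.51 and 1.36, were just inside. AT1G36622, with 2.13, 2.33 and 2.63, the triterpene synthase LUP1, with −1.13, −0.91 and −1.42, and the kinase S6K2, with 0.96, 1.31 and 1.46, were just outside. For level, AT2G16270, ESK1 and AT4G31890 had highest group means of 3.08, 3.10 and 3.10 CPM, and the genes nearest outside, OCT3, AT3G13980 and AT1G14120, had 2.93, 2.91 and 2.90 CPM.

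Members lay on all 5 chromosomes: 67 on chromosome 1, 46 on chromosome 2, 51 on chromosome 3, 53 on chromosome 4 and 63 on chromosome 5, which is 1.57%, 1.88%, 1.60%, 2.15% and 1.68% of their eligible genes. FMN/FHY lies at chr4:11431104-11433322 on the plus strand of TAIR10.1. Within 1 Mb of it, 9 of 292 eligible genes (3.08%) were members: AT4G20460, AT4G21920, AT4G22470 and ACR7 were higher, and AT4G19530, AT4G22120, KT2/3, PIP1;5 and AT4G23820 lower. AT4G22470, annotated as a lipid-transfer-type protein, had the largest ratios of these, 2.33, 2.34 and 1.89, with counts that were not whole. The nearest, AT4G21920, lay 202.6 kb away and had 1.12, 0.92 and 1.29. Over 121 windows of 1 Mb the count of members ran from 0, in 23 windows, to 8. In only 3 places were neighbouring annotated genes both members: AT2G07777 with AT2G07671, 20 bases apart; AT3G05900 with AT3G05910, 268 bases apart; and AT5G58720, a small MutS-related gene, with the kinase gene Mik, 228 bases apart. Each pair stood on the same strand and moved in the same direction, the last with ratios of 0.88, 1.24 and 1.05 and 1.31, 1.36 and 1.27.

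Members had simple gene models. The median number of exons was 2 for higher and 3 for lower members, beside 5 for all eligible genes, and 31.7% and 29.7% had 1 exon, beside 14.0%. Genes that met sign and size with a wider spread also had few exons: 22.5% of the 324 higher and 25.3% of the 352 lower ones had 1. Median transcript length was 1542.5 bases for higher members, 1841.5 for lower members and 1798 for all eligible genes. Another annotated gene overlapped 75 members, on the opposite strand for 61, and the sources do not state the strand setting of the counting. Counts that were not whole, a sign of reads shared between genes, were found in 35 members (12.5%), beside 12.4% of eligible genes.

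Several lists and families held no member. With 1.74% of all eligible genes being members, 0 is near that share for lists of 9 to 29 genes, and nothing is read from it. No gene of the lists for light-harvesting antenna, photosystems and electron transport, or Calvin cycle and photorespiration was a member. In the photosystem list all 25 genes were called lower in green-white and in white leaves, and 19 lower and 2 higher in green leaves. Over all tested genes 72.9%, 79.9% and 58.3% were called in either direction in these classes. No flavin metabolism gene of 9 was a member, nor any of 93 eligible genes annotated as ribosomal proteins or of 129 annotated as F-box proteins. No glucosinolate biosynthesis gene of 26 eligible ones was a member, although 9 of them met sign and size with a wider spread, all lower. Of 26 eligible genes of sugar starvation and senescence, 6 were higher in all leaf classes with a spread above 0.5.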

How the data were processed

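Estimated counts (expected counts) per gene were deposited by the authors in 3 tables, each pairing a leaf class with the wild type; 18 columns of normalized values per library in them were not used. Per the series' design text, reads were filtered with SOAPnuke 1.5.2 and aligned to TAIR10 with HISAT2 2.0.4, from a strand-specific poly(A) library; the submitters' processing notes name Bowtie2, RSEM and DESeq2 without versions. No source used here states the counter's settings or its strand option. The expected counts deposited by the authors are not whole in 7.24% of values, which is how reads shared between genes appear.

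The tables were joined on gene ID, and 9750 missing values were set to 0. Column prefixes gave each library its group. TMM-scaled CPM came from edgeR 4.0.16 in R 4.3.3. For the tests the counts were rounded, 19424 genes passed filterByExpr, and edgeR's quasi-likelihood test with Benjamini-Hochberg adjustment was fitted to all 4 groups at once with 8 residual degrees of freedom; it was tested on simulated data. DESeq2 1.42.0, other scalings, filters and leaving out each library were the alternatives. All 25169 IDs matched TAIR10.1, which gave names, positions and the 250 upstream bases; the deposited tables carry no coordinates. Low-count ratios used exact 95% intervals.

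Members, gene lists, families and motifs were chosen with earlier results of these data known. Genes were named by rule: the 15 higher and 15 lower members with the largest ratio nearest 0, the 5 of either direction with the highest mean CPM, list members, the 5 with the narrowest spread, those within 1 Mb of FMN/FHY or next to each other, 3 genes on either side of each limit, and up to 3 per family. The text names a selection of these, and other members were named after their values were seen.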

Additional observations from a re-analysis of the deposited data

Results flagged for a closer look

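The shift from the wild type differed between leaf classes for part of the 280 genes, by edgeR's quasi-likelihood test of the difference itself at an adjusted p under 0.05. This held for 132 members between green-white and green leaves, for 178 between white and green leaves and for 170 between white and green-white leaves, which is 47.1%, 63.6% and 60.7% of members beside the higher shares of 59.5%, 72.6% and 64.3% of all tested genes. Each difference was capped at 0.5 on the log2 scale by the way the genes were chosen.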

How the results depend on the processing

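Limiting the spread to 0.3 left 119 members (56 higher, 63 lower), and asking for a ratio of at least 1 left 155 (89 higher, 66 lower). The count was 273 with RLE factors, 296 with upper-quartile factors, 209 with library size alone, 275 and 284 with pseudocounts of 0.1 and 1 CPM, and 373 and 199 with minimum levels of 1 and 10 CPM. At those levels 215 and 85 members were lower. Without 1 library in turn the count ran from 273 to 285, and 257 to 272 of the 280 genes stayed in the set; 108 genes stayed under every leave-out and every scaling tried. Calls against the wild type stayed at 280 in all settings, but the rule used the same contrasts, so nothing is read from this. Over all genes, DESeq2 called 9852 of 21263 for green, 12789 of 22727 for green-white and 15001 of 22727 for white leaves. Between green-white and green leaves, white and green leaves, and white and green-white leaves, DESeq2 called 111, 148 and 143 members. Over all genes it called 9811 of 21751, 12954 of 22727 and 10722 of 22239. In the last pairing only, the share of members was the larger. Leaving out 1 library gave 121 to 133, 161 to 177, and 150 to 176 members. Over the 19591 to 19637 genes tested, the same fits made 10702 to 11556, 13540 to 14201 and 11656 to 12723 calls. Nothing is read from these counts, since the rule capped the spread. No paired analysis was possible because the columns carry letters and the labels numbers, with nothing that ties them. Low counts limit the ratios of members near 3 CPM.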
